A study of Mus musculus with 6 samples.

Results

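The enzymes that write and erase methyl groups on DNA, and the catalytic and organising chains of the Polycomb repressors, were followed in sorted mouse breast cancer cells through 10 genes: Dnmt1, Dnmt3a, Dnmt3b, Uhrf1, Hells, Tet1, Tet2, Ezh1, Ezh2 and Bmi1. Every probe set whose only gene symbol in the platform annotation was one of these was taken, which gave 28 of the 34945 single-symbol probe sets and 10 of 18193 genes. The data were 6 Affymetrix Mouse430_2 arrays of cells that the labels call breast cancer stem cells, grown in serum-containing medium and sorted on the surface proteins CD24 and CD29 (integrin beta-1). There were 3 arrays of CD24+CD29+ cells and 3 arrays of CD24-CD29- cells. The labels name no strain, cell line, genotype or treatment other than the sort, and they do not say whether the sample sets came from separate cultures or sorts, so each p-value reflects only the scatter among these arrays, which may be technical. At the RNA level Itgb1, which encodes CD29, was 1.83-fold higher in CD24+CD29+ cells (10.94 against 10.06), and Cd24a was 1.16-fold higher, from a level of 12.79 in CD24-CD29- cells that was already near the top of the scale.

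DNA methylation in mammals is laid down on CpG sites by the de novo methyltransferases Dnmt3a and Dnmt3b and is copied onto new strands at replication by Dnmt1, which Uhrf1 brings to half-methylated sites and which needs the remodeller Hells (also called Lsh) in compact chromatin. Tet1 and Tet2 oxidise the methyl group and so start its removal. Polycomb repressive complex PRC2 methylates lysine K27 of histone H3 through Ezh2, the form typical of dividing cells, or Ezh1, the form that prevails in resting cells, and PRC1, which contains Bmi1, ubiquitylates histone H2A. In the mammary gland Ezh2 and Bmi1 are known for sustaining progenitor cells.

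The replication-coupled members are known targets of the E2F factors, so the promoters of the members were searched for 4 forms of the E2F motif, TTTGGCGC, TTTCGCGC, TTTCCCGC and TTCCCGCC, on both strands. The last 2 overlap by 7 letters. The RefSeq table (GRCm38.p6) held 15 promoters for the 10 members, each reaching from 250 bases before the start site to 50 after it. A motif stood in 5 of the 15, and these belonged to Dnmt1, Uhrf1 (both of its promoters), Hells and Ezh2. The sequences of these 4 genes are shown because their RNA is set beside S phase genes below, and that of Ezh1 because it is the near relative of Ezh2 and moved the other way; capitals mark the motif matches. They lie at chr9:20952574-20952873 (minus strand) for Dnmt1, chr17:56304063-56304362 (plus) for Uhrf1, chr19:38930740-38931039 (plus) for Hells, chr6:47594981-47595280 (minus) for Ezh2 and chr11:101226414-101226713 (minus) for Ezh1.
Dnmt1: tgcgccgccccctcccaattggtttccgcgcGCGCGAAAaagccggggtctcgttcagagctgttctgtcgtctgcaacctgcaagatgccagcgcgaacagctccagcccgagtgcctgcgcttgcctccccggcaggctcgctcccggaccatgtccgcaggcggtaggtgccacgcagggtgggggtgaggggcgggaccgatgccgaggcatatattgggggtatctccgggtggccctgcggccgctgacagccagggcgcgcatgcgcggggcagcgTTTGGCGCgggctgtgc
Uhrf1: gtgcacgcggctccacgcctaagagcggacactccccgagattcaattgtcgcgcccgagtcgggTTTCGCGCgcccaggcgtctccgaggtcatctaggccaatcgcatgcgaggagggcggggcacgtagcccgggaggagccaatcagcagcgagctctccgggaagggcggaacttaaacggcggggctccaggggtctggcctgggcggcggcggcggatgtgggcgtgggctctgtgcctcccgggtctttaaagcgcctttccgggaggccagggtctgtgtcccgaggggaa
Hells: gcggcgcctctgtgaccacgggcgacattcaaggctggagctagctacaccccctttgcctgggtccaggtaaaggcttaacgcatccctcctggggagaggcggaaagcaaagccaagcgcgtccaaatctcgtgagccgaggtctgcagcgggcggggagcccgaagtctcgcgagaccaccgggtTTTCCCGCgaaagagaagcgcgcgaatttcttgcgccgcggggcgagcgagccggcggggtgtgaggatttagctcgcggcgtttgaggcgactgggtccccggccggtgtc
Ezh2: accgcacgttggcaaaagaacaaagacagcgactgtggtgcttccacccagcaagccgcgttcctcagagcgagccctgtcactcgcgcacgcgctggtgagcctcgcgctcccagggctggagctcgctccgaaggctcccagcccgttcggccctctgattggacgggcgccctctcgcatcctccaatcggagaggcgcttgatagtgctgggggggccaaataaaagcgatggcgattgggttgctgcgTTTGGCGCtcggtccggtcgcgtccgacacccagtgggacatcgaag
Ezh1: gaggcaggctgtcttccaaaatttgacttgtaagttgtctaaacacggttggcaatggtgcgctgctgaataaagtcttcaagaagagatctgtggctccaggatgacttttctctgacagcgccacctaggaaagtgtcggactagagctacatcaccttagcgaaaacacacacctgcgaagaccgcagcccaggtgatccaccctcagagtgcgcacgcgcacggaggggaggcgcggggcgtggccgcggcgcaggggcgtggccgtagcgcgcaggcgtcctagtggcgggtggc

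In the Dnmt1 promoter shown the matches began 219 bases before its start site (the reverse complement, GCGCGAAA) and 33 bases after it (TTTGGCGC). The other Dnmt1 promoters, at chr9:20952930-20953229 and chr9:20959839-20960138, are not shown and held none of the 4 forms. The Hells match, TTTCCCGC, began 62 bases before the start site, the Ezh2 match, TTTGGCGC, 3 bases after it, and the Uhrf1 match, TTTCGCGC, 185 bases before it. The second Uhrf1 promoter, not shown, held TTCCCGCC. No promoter of Dnmt3a, Dnmt3b, Tet1 or Bmi1, all read below as higher in CD24+CD29+ cells, held any of the 4 forms. Those of Ezh1 and Tet2, both read as lower, held none either. Of all 32851 promoters of this length, 3.49% held at least 1 of the 4 forms, and of the 8701 with at least 20 CpG sites 8.32% did. The Dnmt1, Uhrf1, Hells and Ezh2 promoters shown had 33, 33, 34 and 31 CpG sites and that of Ezh1 had 23, against a median of 7 over all promoters. Of 28 measured S phase genes with a promoter in the table, 13 (46.4%) held a form in at least 1 promoter. This share is counted by gene, unlike the shares of promoters above, and by gene 4 of the 10 members held a form. A match is a description of the letters and not evidence of binding, and a window without a match says nothing of the factor.

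All values are log2 RMA expression, a scale on which 1 unit is a 2-fold difference, and every difference is CD24+CD29+ minus CD24-CD29-. A gene with several probe sets was read by the one with the highest mean over all 6 arrays, and probe sets of the _x_at type, which may bind RNA of other genes, were passed over where the gene had another. By this reading Dnmt1, Hells, Dnmt3a, Tet1, Dnmt3b, Uhrf1, Bmi1 and Ezh2 were higher in CD24+CD29+ cells and Ezh1 and Tet2 were lower. All 10 passed limma's adjusted p of 0.05, with differences from -0.28 to 0.79, and the groups did not overlap for any of them (73.6% of all genes). None reached 2-fold (4.67% of all genes were called at that size). Of all genes, 68.9% passed the same threshold, 33.4% as higher and 35.5% as lower, so that passing does not set the members apart. Higher calls were more common at the level of the members: of the 6432 genes with a mean between 7.66 and 10.81, the range of the members, 76.6% passed, 55.7% as higher and 20.9% as lower, with a median difference of 0.22 against -0.04 over all genes. The members' median was 0.28.

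**Figure D1:**
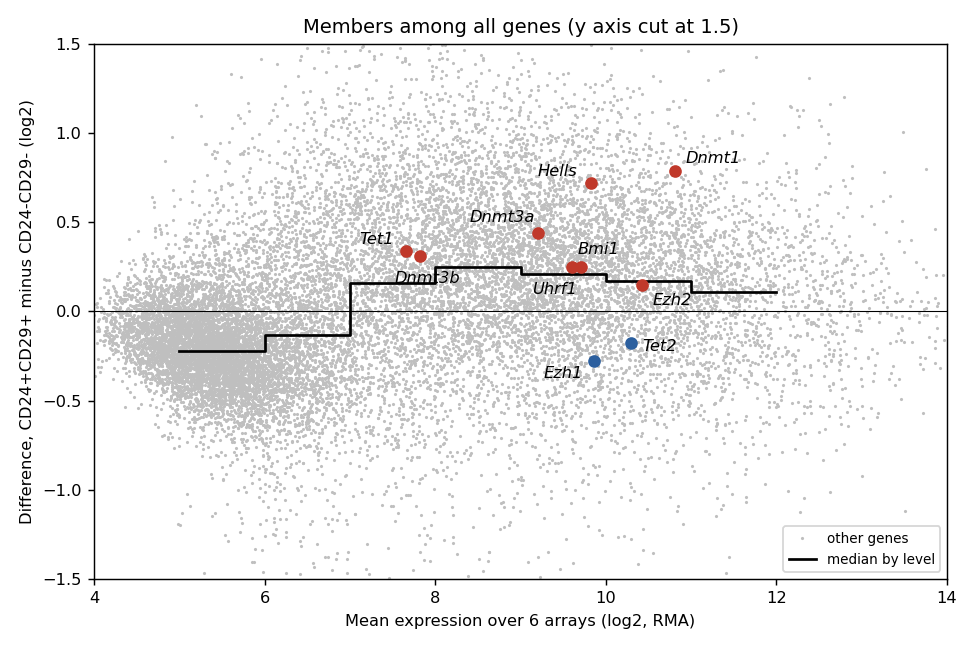
Mean expression over 6 arrays (x, log2) against the difference between CD24+CD29+ and CD24-CD29- cells (y, log2) for all genes (grey, 1 probe set each), with the 10 members named, red where higher and blue where lower in CD24+CD29+ cells. The black step line is the median of all genes by level, at 0.21 for means of 9 to 10: Dnmt1 and Hells lie well above it, Uhrf1, Bmi1 and Ezh2 near it, and Tet2 and Ezh1 below it.

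Every array averaged 6.93, but values spread more widely in CD24+CD29+ cells (SD over probe sets 2.10 to 2.14, against 2.01 to 2.03). After quantile normalization or cyclic loess, which both even out such differences between arrays, 5 members passed as against 10: Dnmt1, Hells and Dnmt3a as higher and Ezh1 and Tet2 as lower. The 27 probe sets for poly-A control RNAs, which are added to a sample in known amounts, read higher in the CD24-CD29- group by a mean of 0.97. When the arrays were set to equal poly-A signal, the median over all genes became 0.94 and all 10 members were higher in CD24+CD29+ cells. The share of higher genes among all called genes was 48.5% as deposited, 47.5% after quantile normalization or cyclic loess, 55.9% after median centring and 98.8% after the poly-A scaling. Directions given here are those of the deposited values and so are relative to the rest of the array; each gene named as lower turned positive under the poly-A scaling except Gadd45a, Gadd45b, Tdrkh and Csn3. The 13 epithelial and mammary markers had a median level of 11.86, from Krt19 at 9.26 and 10.21 in CD24+CD29+ and CD24-CD29- cells to Epcam at 14.11 and 14.13, and 4 rose and 7 fell. The basal keratin genes Krt5, Krt14 and Krt17 were higher by 0.65, 0.99 and 1.04, and the luminal genes Krt18, Krt19, Elf5 and Csn3 were lower, at -0.42, -0.95, -0.97 and -1.12.

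Fibroblast markers rose on the same arrays, 9 of 9 with a median of 0.69 and a list mean of 8.83 to 8.91 against 7.88 to 7.90. The collagen genes Col1a2 and Col3a1 were higher by 4.07-fold and 3.31-fold, Lum by 2.78-fold, Dcn by 2.22-fold, and the receptor genes Pdgfra and Pdgfrb by 0.55 and 0.59 on the log2 scale. Leukocyte markers had a low median level, 5.56, and a median difference of -0.29, near the -0.22 of all genes with a mean from 5 to 6; of 9, none rose and 5 fell. Their group means ran from 4.46 for Itgam to 7.63 for Csf1r (6.75 in CD24+CD29+ cells), with Ptprc, which defines leukocytes, at 4.85 and 4.94. The 7 endothelial markers (median level 5.12) reached 6.47 and 6.31 with Kdr, and 2 rose and 1 fell. Of 4 adipocyte markers (median level 5.35) 1 rose, Fabp4 at 6.72 against 5.84, with 2 probe sets called in the opposite direction, and 1 fell. The part of these cell type markers in the differences of the members was not tested.

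**Figure D2:**
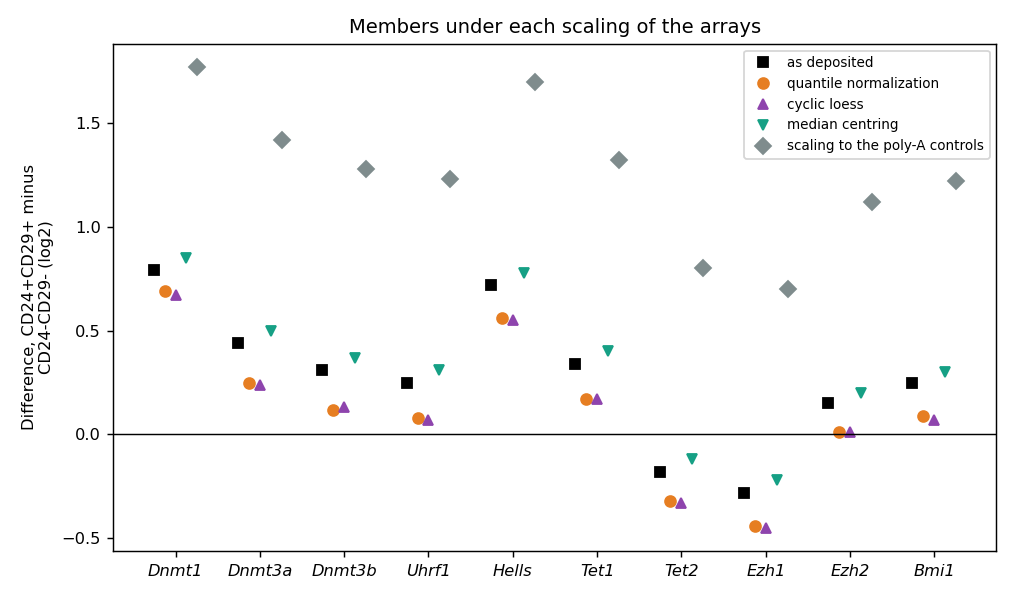
Difference between the groups (y, log2) for the probe set that stands for each member (x), on the deposited values and under 4 other scalings of the arrays. Quantile normalization and cyclic loess lower every member, though not equally. The former takes Dnmt1 from 0.79 to 0.69 and Dnmt3a from 0.44 to 0.25, and both bring Ezh2 to 0.01. The poly-A scaling lifts all 10 members, Ezh1 from -0.28 to 0.70.

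Among the maintenance methylation genes, Dnmt1 and Hells had the largest differences of the 10 members as read here. Dnmt1, which copies methylation at the replication fork, stood at 11.22, 11.18 and 11.21 on the CD24+CD29+ arrays and at 10.38, 10.41 and 10.45 on the CD24-CD29- arrays. The groups were far apart and each was tight, and the difference was 0.79 (SE 0.05, 1.73-fold, limma adjusted p = 2.9e-06). A second Dnmt1 probe set, ending in _x_at, differed by 0.40 (limma adjusted p = 0.00015), which is the value of the gene where the brightest probe set of any type is taken, while the remaining one, of the same type, was at 0.10 with overlapping groups and no call. Hells, the remodeller that opens heterochromatin to the methyltransferases, read 10.26, 10.16 and 10.15 against 9.61, 9.44 and 9.35. All 3 CD24+CD29+ arrays lay above all 3 CD24-CD29- arrays, the latter being the more spread, and the difference was 0.72 (SE 0.07, 1.65-fold, limma adjusted p = 5.0e-05). Its other 2 probe sets differed by 0.79 and 0.64, so that every Hells probe set rose.

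Uhrf1, the reader of half-methylated CpG sites that recruits Dnmt1, was also higher, but its 2 probe sets gave different sizes. The one with the higher mean read 9.66, 9.72 and 9.79 against 9.61, 9.39 and 9.41. The groups nearly touched, the lowest CD24+CD29+ array lying just above the highest CD24-CD29- array, and the difference was 0.25 (SE 0.07, limma adjusted p = 0.014). The call was lost without CD24+CD29+ replicate 3, at 0.22, or without CD24-CD29- replicate 2, at 0.21, and after quantile normalization or cyclic loess, at 0.08 and 0.07. The second probe set read 7.79, 7.83 and 7.71 against 6.38, 6.48 and 6.49, a difference of 1.32 (SE 0.06, 2.50-fold, limma adjusted p = 5.7e-07), and 1.22 to 1.38 under quantile normalization, cyclic loess or median centring. The groups were widely separated on this probe set, the one member probe set of 28 that differed by 2-fold or more (3.43% of all probe sets were called at this size). The annotation ties both Uhrf1 probe sets to the same source sequence.

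**Figure D3:**
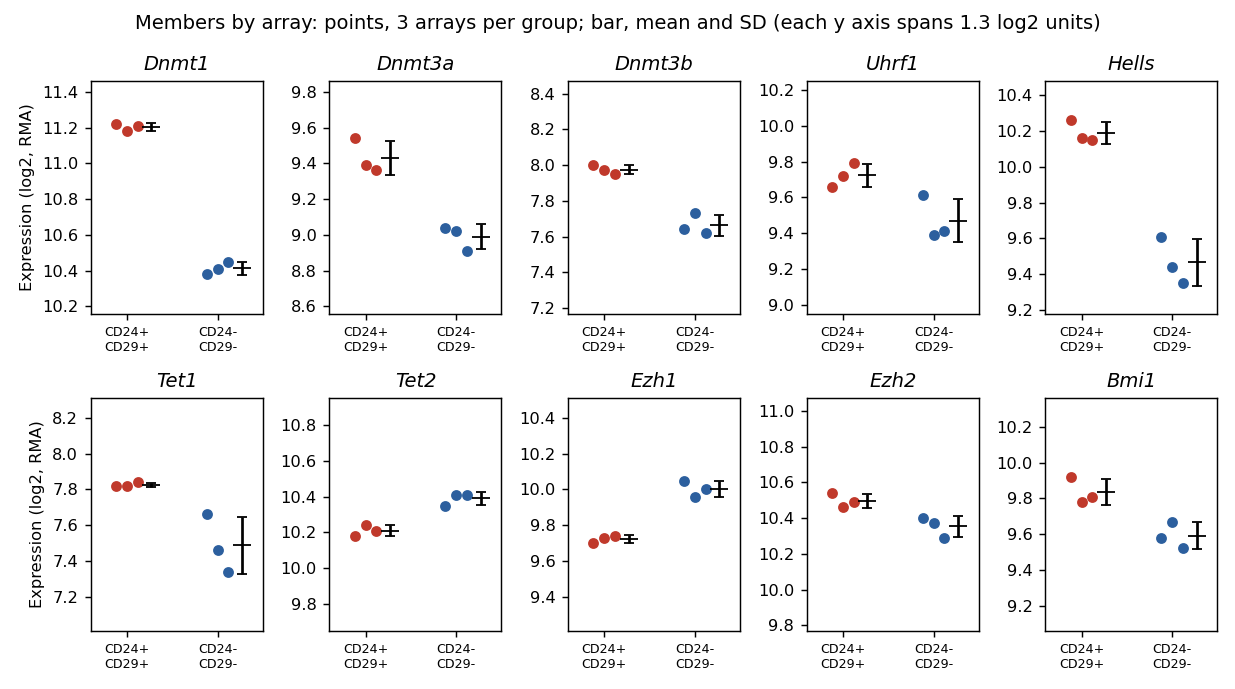
Expression (y, log2 RMA) of the 10 members on each of the 3 CD24+CD29+ arrays (red) and the 3 CD24-CD29- arrays (blue), with the mean and SD of each group as black bars; every panel spans the same 1.3 log2 units. Dnmt1 shows the widest gap, from 11.20 to 10.41 in the means, and Ezh2 the narrowest, from 10.50 to 10.35.

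Both de novo methyltransferases rose. Dnmt3a read 9.54, 9.39 and 9.36 against 9.04, 9.02 and 8.91, a difference of 0.44 (SE 0.07, 1.36-fold, limma adjusted p = 0.0005) with groups that did not overlap. Of its other 4 probe sets, 2 rose, by 0.69 and 0.26, and 2, at 0.14 and -0.10, did not pass. The call at 0.26 rested on overlapping groups and was lost without CD24+CD29+ replicate 2 or 3, at 0.23 and 0.21, or without CD24-CD29- replicate 2 or 3, at 0.21 and 0.23. It was also lost after quantile normalization and cyclic loess, at 0.06 and 0.05. Under these scalings the probe set at -0.10 passed as lower, at -0.24 and -0.23. The main probe set stayed called as higher, at 0.25 and 0.24, and so did the one at 0.69, at 0.50 and 0.49. Dnmt3b, the second de novo enzyme, read 8.0, 7.97 and 7.95 against 7.64, 7.73 and 7.62. The groups were apart by 0.31 (SE 0.05, 1.24-fold, limma adjusted p = 0.00093), and quantile normalization and cyclic loess left 0.12 and 0.13, which did not pass. Its other probe set was higher by 0.44 and kept its call under both, at 0.39 and 0.40.

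The Tet genes, which encode the dioxygenases that oxidise methylcytosine, split. Tet1 read 7.82, 7.82 and 7.84 against 7.66, 7.46 and 7.34, so that the CD24+CD29+ arrays were nearly equal and the CD24-CD29- arrays were lower and spread. The difference was 0.34 (SE 0.08, 1.27-fold, limma adjusted p = 0.0051), and 0.17 after quantile normalization or cyclic loess, where it did not pass. The other 3 Tet1 probe sets, at 0.30, -0.12 and -0.05, had overlapping groups and did not pass, and averaging all 4 gave 0.12, which did not pass either. Tet2, the form best known from blood stem cells, read 10.18, 10.24 and 10.21 against 10.35, 10.41 and 10.41. It was lower in CD24+CD29+ cells by a small step with no overlap, -0.18 (SE 0.05, limma adjusted p = 0.013), which became -0.12 and lost its call under median centring and was 0.80 under the poly-A scaling. Its second probe set was at the same size, -0.18, and did not pass. Tet3, the remaining member of the family, was lower by 1.20-fold (-0.26, SE 0.07, limma adjusted p = 0.010), a call lost after quantile normalization or cyclic loess. It read low, at 5.91 against 6.17, and all genes with a mean from 6 to 7 had a median difference of -0.13.

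The catalytic chains of PRC2 moved apart. Ezh1 read 9.70, 9.73 and 9.74 in CD24+CD29+ cells and 10.05, 9.96 and 10.00 in CD24-CD29- cells. The difference was -0.28 (SE 0.05, 1.21-fold lower, limma adjusted p = 0.0013), with no overlap. Of its other 3 probe sets, 2 fell, by 0.37 and 0.78 on the log2 scale, and 1, at -0.00, did not pass; all 3 are dim, with means from 4.78 to 5.87. Under quantile normalization and cyclic loess the main probe set was at -0.44 and -0.45. Ezh2, the catalytic chain of dividing cells, has 1 probe set, which read 10.54, 10.46 and 10.49 against 10.40, 10.37 and 10.29. The gap was the smallest of the 10 members, 0.15 (SE 0.05, 1.11-fold, limma adjusted p = 0.04). The call was lost after quantile normalization or cyclic loess, at 0.01 in both, and without CD24+CD29+ replicate 1 or 3, at 0.13 and 0.15, or CD24-CD29- replicate 2 or 3, at 0.16 and 0.11.

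Because both genes are read on the same array, their ratio does not depend on the scaling of a whole array by 1 amount. The log2 ratio of Ezh2 to Ezh1 was 0.77 ± 0.05 in CD24+CD29+ and 0.35 ± 0.06 in CD24-CD29- cells (SD, n = 3 each; change 0.42, 2-sided exact permutation p = 0.1, the lowest value possible with 3 arrays a group, and 0.14 after Benjamini-Hochberg adjustment over 7 such ratios). The ratio of Tet1 to Tet2 changed by 0.52 and that of Dnmt1 to Dnmt3b by 0.48, with the same exact p. Taking the brightest probe set of any type or the mean of the probe sets reduced the change of Dnmt1 to Dnmt3b to 0.09 and 0.06, and the mean reduced that of Tet1 to Tet2 to 0.30. As first read, in each of the 3 ratios every CD24+CD29+ array lay above every CD24-CD29- array. For Ezh2 to Ezh1 and Tet1 to Tet2 this was fixed by the values already given. The first gene was higher and the second lower, each without overlap. The separation and exact p of those ratios therefore add nothing to the members' own differences. The level of such a ratio has no meaning between probe sets; its change says only that the pair moved unequally.

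Bmi1, a RING-finger chain of PRC1 that stimulates its ubiquitin ligase, read 9.92, 9.78 and 9.81 against 9.58, 9.67 and 9.52. The groups did not overlap and differed by 0.25 (SE 0.06, 1.19-fold, limma adjusted p = 0.008), and the call was lost at 0.09 and 0.07 after quantile normalization and cyclic loess. The second probe set was at -0.16, with overlapping groups and no call on the deposited values, and passed as lower after quantile normalization and cyclic loess, at -0.36 and -0.37. The mean of both gave 0.04, which did not pass, so the direction of Bmi1 depended on the probe set.

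**Figure D4:**
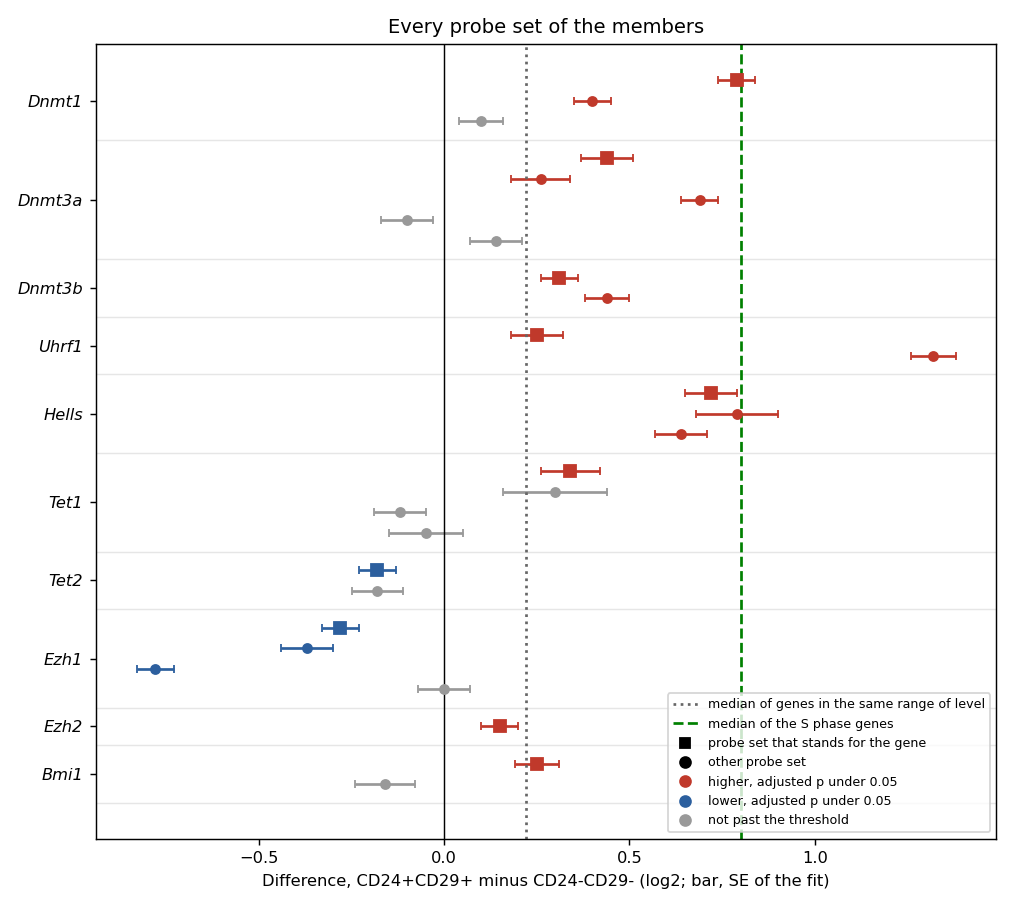
Difference between the groups (x, log2, with the SE of the fit) for all 28 probe sets of the 10 members (y), squares for the probe set that stands for the gene, red and blue for calls as higher and lower and grey for none. Every probe set of Hells, Uhrf1 and Dnmt3b is red, no Ezh1 or Tet2 probe set is red, and the dotted and dashed lines mark the median of genes in the same range of level (0.22) and of the S phase genes (0.80).

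Over all 28 probe sets, 15 rose, 4 fell and 9 did not pass, against 63.9% called of all 45037 probe sets, 29.2% as higher and 34.8% as lower. On the deposited values no member had calls in both directions, but Dnmt3a did after quantile normalization or cyclic loess. The groups did not overlap for 19 of the 28, against 68.2% of all probe sets.

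Genes of S phase, which encode replication enzymes and are largely E2F targets, were higher on the same arrays: 32 of 34 measured rose and 1 fell, with a median of 0.80 and no overlap in their mean level, 9.51 to 9.59 on CD24+CD29+ and 8.71 to 8.80 on CD24-CD29- arrays. The helicase gene Mcm5 was higher by 4.15-fold, the polymerase genes Pola1 and Pole by 2.47-fold and 2.39-fold, the helicase cofactor gene Cdc45 by 2.34-fold, and the sliding clamp gene Pcna by 1.45-fold; Pola1 and Cdc45 each had 1 probe set called in the opposite direction. E2f1 itself fell by 0.37 on the log2 scale, with 1 probe set called in the opposite direction. The proliferation marker Mki67 was higher by 1.57-fold. Relative to the mean of the S phase genes on each array, Dnmt1 changed by -0.01 (1.65 ± 0.02 against 1.66 ± 0.08, SD, n = 3; exact permutation test, 2-sided, p = 0.8) and Hells by -0.08 (p = 0.3 in the same exact test). For Ezh2 the ratio changed by -0.66 and for the main Uhrf1 probe set by -0.55 (p = 0.1 in the same exact test). These ratios depend on the probe set: the other Uhrf1 probe set rose by 1.32, more than the S phase median, and the second Dnmt1 probe set by 0.40, less than it. These ratios were chosen after the members' values had been seen. How far proliferation takes part in the differences of the members was not tested. In RNA from sorted bulk cells, a change in the share of cells that express a gene and a change in RNA per cell cannot be told apart.

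**Figure D5:**
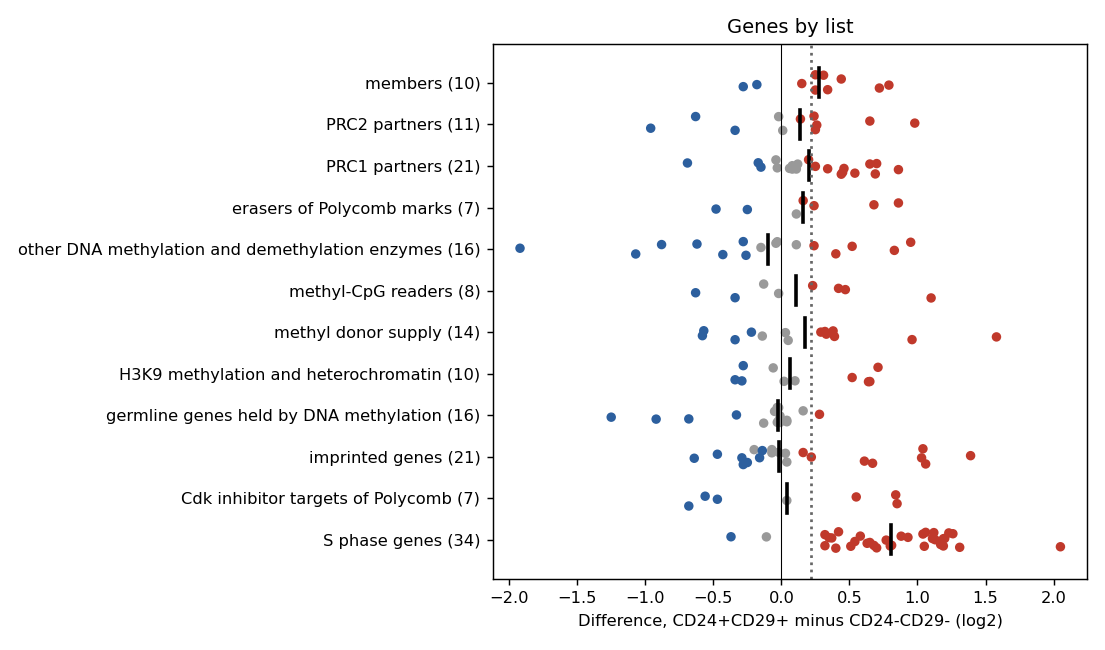
Differences between the groups (x, log2) of each measured gene (points, 1 probe set each; red higher, blue lower, grey not past the threshold) in the members and 11 lists of related genes (y, number measured in brackets), with the median of each list as a black bar. The S phase genes centre on 0.80, the members on 0.28 and the PRC2 and PRC1 partners on 0.14 and 0.20, near the dotted line at 0.22, the median of all genes in the members' range of level.

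The partners of Ezh1 and Ezh2 in PRC2 showed small and mixed differences. Their median was 0.14, and of 11 measured 6 rose and 3 fell. Among the 3 that fell was the core chain Rbbp4, with 3 other probe sets called in the opposite direction. Quantile normalization gave 4 higher and 4 lower, and cyclic loess 3 and 3. The core chains Eed and Suz12, without which the enzyme is inactive, were higher by 1.19-fold (10.95 ± 0.03 to 11.20 ± 0.03, SD, n = 3) and 1.18-fold, the latter a call lost after quantile normalization or cyclic loess and opposed by 1 other probe set. Among the accessory chains, Jarid2, which helps place the complex on chromatin, was lower by 1.94-fold (9.24 ± 0.11 against 10.20 ± 0.11; -0.96, SE 0.08, limma adjusted p = 1.3e-05) and did not pass under the poly-A scaling. Epop read higher, at 5.40 against 4.43, the latter in the lowest range of the arrays, where a reading cannot be told from background and no fold is given. Ezhip, an inhibitor of the complex, was lower by 0.63 on the log2 scale at low levels (5.42 against 6.06). Phf19, which binds methylated H3K36, was higher by 1.57-fold, with a second probe set called in the opposite direction.

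Of 21 measured PRC1 genes other than Bmi1, 11 rose and 3 fell (median 0.20). Rnf2 and Ring1, the ubiquitin ligases that pair with Bmi1, were higher by 1.27-fold and 1.15-fold. The polyhomeotic gene Phc2 was higher by 1.82-fold (11.07 ± 0.03 against 10.21 ± 0.03, SD, n = 3), Scml2 by 1.62-fold and Pcgf6, a relative of Bmi1 in variant PRC1, by 1.61-fold. Bcorl1, a corepressor of variant PRC1, was lower by 1.61-fold. Quantile normalization and cyclic loess each gave 11 higher and 4 lower, though not of the same genes: Phc3, at 0.25 as deposited, lost its call and Pcgf1, at 0.06, gained one.

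Enzymes that undo the Polycomb marks were split. Of 7 measured, 4 rose and 2 fell (median 0.16); quantile normalization and cyclic loess each gave 2 and 1. The H3K27 demethylase genes moved apart: Kdm6b was higher by 1.60-fold (10.40 ± 0.01 against 9.73 ± 0.13, SD, n = 3) and Kdm6a lower by 1.40-fold (9.80 ± 0.02 against 10.29 ± 0.02). Asxl2, a cofactor of the H2A deubiquitinase, was higher by 1.81-fold, and Asxl3 read lower at low levels (5.24 against 5.49), a call lost after quantile normalization or cyclic loess.

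Of 16 other measured genes of DNA methylation and its removal, 5 rose and 7 fell (median -0.09). The Gadd45 genes, stress-induced regulators that have been linked to active demethylation and to growth arrest, fell together. Gadd45a stood at 8.66 ± 0.13 against 10.58 ± 0.04 (SD, n = 3; -1.92, SE 0.07, 3.79-fold lower, limma adjusted p = 2.7e-07) and stayed lower under all 4 other scalings. Gadd45b was lower by 2.10-fold and Gadd45g by 1.84-fold; under the poly-A scaling, at -0.10 and 0.10, neither passed. Cdca7 and Cdca7l rose: Cdca7, the partner that Hells needs to remodel nucleosomes, was higher by 1.93-fold (9.80 ± 0.04 against 8.85 ± 0.19), and its paralog Cdca7l by 1.78-fold. Trdmt1, which methylates transfer RNA, was higher by 1.32-fold, the Uhrf1 paralog Uhrf2 was at 0.11 and did not pass, and Dnmt3l, the catalytically inactive cofactor of the de novo enzymes, read lower at low levels (4.99 against 5.42).

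Of 8 measured readers of methylated CpG sites and their cofactors, 4 rose and 2 fell (median 0.11), and 3 and 3 after quantile normalization or cyclic loess. Mbd3, a chain of the NuRD complex, was higher by 2.15-fold and Trim28 by 1.39-fold, and Zbtb33 (Kaiso) by 1.34-fold; Zbtb38 was lower by 1.54-fold, with 1 probe set called in the opposite direction. Of 14 genes that supply methyl groups or the Tet cofactor, 7 rose and 4 fell (median 0.17), and 6 and 5 under those scalings. The folate enzyme genes Shmt2 and Mthfd1 were higher by 2.99-fold (8.68 ± 0.04 against 7.10 ± 0.14, SD, n = 3) and 1.95-fold, and Idh1, which makes the Tet cofactor 2-oxoglutarate, and D2hgdh were lower by 1.49-fold each, D2hgdh with 1 probe set called in the opposite direction. Of 10 genes of H3K9 methylation and heterochromatin, 4 rose and 3 fell (median 0.06), and 4 and 4 under those scalings. Of the 3 that fell, Suv39h2 and Cbx1 had 2 and 1 probe sets called in the opposite direction. Cbx3, the remaining one, read low, at 5.83 against 6.16. The methyltransferase genes Ehmt1, Setdb2 and Ehmt2 were higher by 1.63-fold, 1.57-fold and 1.43-fold and the heterochromatin protein gene Cbx5 by 1.56-fold, Ehmt2 and Cbx5 each with 1 probe set called in the opposite direction.

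Genes whose repression is known to rest on DNA methylation or Polycomb were read next. Of 16 germline genes silenced by promoter methylation in somatic cells, 1 rose and 4 fell (median -0.02); 4 rose and 4 fell after quantile normalization, and 3 and 4 after cyclic loess. Their median level was 5.11, below the lower quartile of every array (5.20 to 5.41), and with no detection calls a low reading cannot be told from background. Tdrkh read lower (4.91 ± 0.08 against 6.16 ± 0.15, SD, n = 3), under the poly-A scaling too. Sohlh2 (5.10 against 5.78) and Tex101 (4.68 against 5.02) also read lower as deposited, but turned positive under the poly-A scaling, at 0.30 and 0.64. No fold is given for Tdrkh, Sohlh2 and Tex101, since their CD24+CD29+ means lie under that quartile. Brdt was lower by 1.90-fold (5.87 against 6.79). Of 21 imprinted genes, 8 rose and 7 fell (median -0.02); quantile normalization and cyclic loess each gave 8 and 3. The paternally expressed Igf2 and Mest were higher by 2.06-fold and 2.08-fold (11.26 ± 0.03 against 10.20 ± 0.01, SD, n = 3), the long RNA Kcnq1ot1 by 2.04-fold and Grb10 by 2.62-fold, the last with 1 probe set called in the opposite direction.

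Cell cycle inhibitors that Polycomb is known to repress split by family. Cdkn2a, the classic target of Bmi1 and Ezh2, rose, with a mean of 6.77 ± 0.04 against 5.93 ± 0.04 (SD, n = 3; 0.84, SE 0.05, 1.79-fold, limma adjusted p = 3.2e-06), and its neighbour Cdkn2b was higher by 1.47-fold and Cdkn2c by 1.80-fold. Cdkn1a, Cdkn1b and Cdkn1c were lower by 1.60-fold, 1.47-fold and 1.39-fold, Cdkn1a with 1 probe set called in the opposite direction. Of the 7 genes, 3 rose, 3 fell and Cdkn2d, at 0.04, did not pass.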

How the data were processed

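The deposited values were log2 expression of 45101 probe sets on 6 Affymetrix Mouse430_2 arrays, made by the authors with RMA and Partek software, per the submitters' processing notes; their versions and settings are not stated there. Values carry no detection calls, and background compresses the differences of dim genes. Gene symbols came from the platform annotation and were checked by Entrez identifier against RefSeq (GRCm38.p6), and no symbol changed. The array's build is not given, so gene coordinates are not printed; promoter sequences are RefSeq's. For the comparison, limma 3.58.1 (R 4.3.3; lmFit and eBayes, with no block) was run as 1 fit over the 45037 non-control probe sets, with Benjamini-Hochberg adjustment over all of them, a threshold of 0.05 and 2-sided tests. The fit was tested on simulated data. Exact permutation tests used scipy 1.17.1. Precision is limited by the number of arrays.

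The members and gene lists were chosen with earlier results of these data known. Named were all members and, of each list, up to 4 called genes with the largest difference, plus partners listed beforehand (Eed, Suz12, Ring1, Rnf2, Tet3, Uhrf2, Dnmt3l, Trdmt1, Kdm6a, Kdm6b, Cdkn2a, Cdkn2b, Cdkn1a, Pcna and Mki67). Cbx1, Cbx3, Cdca7l, Cdkn1c, Cdkn2d, E2f1, Pcgf1, Phc3, Rbbp4, Suv39h2 and the cell type markers were added after their values were seen. Counts over a list use 1 probe set per gene, and some counted genes that are not named also have probe sets called in the opposite direction. Adipocyte, endothelial and epithelial marker lists had median differences of -0.03, -0.02 and -0.13. Alternatives were 4 scalings, 2 filters on dim probe sets (the lowest 40% or 20% by mean), a trended and robust fit, a replicate block, leaving out each array, 3 other readings of a gene and a 2-fold criterion.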

Additional observations from a re-analysis of the deposited data

How the results depend on the processing

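Of 1067 values recomputed under 18 alternatives, 904 kept their direction and side of the threshold or stayed near their size. Part of these could not have changed. The list medians and the changes in ratios are the same by construction under the 2-fold criterion, the replicate block and the trended and robust fit. The share that stayed the same is therefore not a measure of robustness. With at least a 2-fold difference required, 0 member genes (0 higher, 0 lower), 1 member probe set (1 higher, 0 lower), 849 genes, 1547 probe sets and 23 of the listed genes passed. After quantile normalization 5 member genes passed (3 higher) and 9 member probe sets as higher and 7 as lower; cyclic loess gave the same counts, 5, 3, 9 and 7. Median centring left 1 member gene lower, and leaving out the dimmest 40% left 2 member probe sets lower. Under the poly-A scaling 28 member probe sets were higher and 0 lower, 0 member genes were lower, and 44493 of all probe sets passed. It turned to positive Ezh1 (0.70; other probe sets 0.61, 0.20 and 0.97), Tet2 (0.80 and 0.80), and the lower-going probe sets of Bmi1 (0.81), Dnmt3a (0.88) and Tet1 (0.85 and 0.93), as well as the medians of the other methylation genes (0.88), germline genes (0.95) and imprinted genes (0.96). The germline median was 0.08 after quantile normalization and 0.10 after cyclic loess, and the imprinted median 0.07 after either, 0.04 with median centring, the brightest or the mean of probe sets, and 0.16 without the dimmest 40%. Quantile normalization and cyclic loess turned the medians of Cdk inhibitors to -0.15 (both; -0.01 to 0.09 when 1 array was left out, -0.01 without CD24+CD29+ replicate 1), of H3K9 genes to -0.06 and -0.08 and of CpG readers to -0.02 and -0.03; that of the mark erasers was -0.00 after cyclic loess and -0.08 with the mean of probe sets. The cause of each change was not tested.

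Leaving out 1 array at a time gave 8 to 10 member genes (6 to 8 higher, 2 lower), 17 to 20 member probe sets (12 to 16 higher, 4 to 5 lower), 11296 to 12022 genes, 25721 to 27571 probe sets and 117 to 120 listed genes. With the replicate number as a block 9 member genes passed (7 higher, 2 lower), Ezh2 at 0.15 no longer among them, and 12534 of all genes; same-numbered arrays deviated together with correlations of 0.199, -0.038 and 0.051, so the numbers were not taken to pair the samples, and CD24+CD29+ replicate 2 correlated best with CD24-CD29- replicate 3, at 0.178. Low signal limits the dim probe sets of Ezh1 (lowest mean 4.88) and Tet1 (5.88) and the germline genes.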
